A study of Homo sapiens with 24 samples.

Results

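Epithelial-mesenchymal transition (EMT) was followed on the mRNA level through 10 genes, CDH1, EPCAM, CDH2, VIM, FN1, SNAI1, SNAI2, ZEB1, ZEB2 and TWIST1. They were found among 22242 gene symbols in the scanner files, which gave 14 of the 34127 probes on the array: CDH2, ZEB1, ZEB2 and TWIST1 had 2 probes each and the other genes 1. The samples were the human lung adenocarcinoma lines A549 and H1975, treated with 0.75 mg/ml Pirfenidone, an anti-fibrotic drug, or with the same volume of PBS, for 6 h or 24 h. These were 8 groups with 3 samples each, and total RNA of each sample was labeled in 1 color and hybridized to 1 Agilent array, 24 arrays in all. Each line stems from a single tumor, and nothing in the labels says whether the 3 samples of a group came from separate cultures, so that p-values measure the spread between these samples only. Levels are given on the log2 scale, relative to the 75th percentile of the array's signals, and a difference of 1 is a 2-fold difference.

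EMT is the process in which epithelial cells lose their junctions to neighboring cells and take on a motile, fibroblast-like state, and it is studied in lung cancer for its link to invasion and drug resistance. E-cadherin (CDH1) and EPCAM hold epithelial cells together, while N-cadherin (CDH2), the intermediate filament vimentin (VIM) and the matrix protein fibronectin (FN1) mark the mesenchymal state. The transcription factors SNAI1, SNAI2, ZEB1, ZEB2 and TWIST1 are known repressors of epithelial genes or drivers of the process, and TGFβ is a classic inducer.

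The first 30 bases of the probes on which the results below turn are printed 5′ to 3′, since they define which transcript each level belongs to.
CDH1: aaatcaaccctgcaatcactttttggaatt
EPCAM: tcaaaatataagcagcttgaaactggcttt
CDH2 probe 1: taccagaatataaatgatacacctctgacc
FN1: aatactctttctgcacagaccacactgttt
SNAI1: aacaatgtctgaaaagggactgtgagtaat
TWIST1 probe 1: aagctgagcaagattcagaccctcaagctg
Their positions in hg19, as the files give them, are chr16:68869214-68869273 on the plus strand for CDH1, chr2:47613894-47613953 on the plus strand for EPCAM and chr18:25530936-25530995 on the minus strand for CDH2 probe 1. SNAI1 lies at chr20:48605170-48605229 on the plus strand and TWIST1 probe 1 at chr7:19156462-19156521 on the minus strand. The FN1 probe covers chr2:216288217-216288895 on the minus strand, which is 679 bases for a probe of 60 bases, so that its sequence is split on the genome. Its accession is that of a short FN1 transcript variant, and whether it also reports the full-length transcripts was not tested. Exons and UTRs were not assigned, as no annotation of hg19 was used here.

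Signals of all 5 epithelial markers exceeded background clearly on every array of either line. NKX2-1, the lineage factor of lung epithelium, was well above background on 12 arrays of H1975 and 0 of A549, and SFTPB on 9 and 1. The other lung epithelium markers, SFTPC and NAPSA, had median levels of -4.33 and -3.72 in A549 and -4.21 and -3.18 in H1975. Both of these were also well above background, on 12 arrays in each line. Of 7 fibroblast markers, COL1A1, LUM and THY1 were so on all 12 arrays of A549 and COL1A1, COL1A2 and PDGFRB on all 12 of H1975, while DCN and COL3A1 were on none of either line. Per array, 62.7% to 69.5% of probes exceeded background in this way, and none was saturated. By the date in the name of the scanner file the arrays fall into 4 runs, numbered in order, and whether it is the date of the scan, the hybridization or the culture is not stated. Run 1 held replicate 3 of all A549 groups, replicate 1 of H1975 PBS at 6 h and replicate 3 of the other H1975 groups, and its arrays stood apart in several of the 10 genes. At 24 h, A549 PBS replicate 3 also stood apart in 10 proliferation genes, with a median level of 1.05 against 2.61 and 2.44 in the other replicates. Pirfenidone replicate 3 was at 2.65, the highest treated value, against 2.33 and 1.70. In replicate 3 the treated array was thus above the PBS array, the reverse of the other replicates. The reason was not tested, and the A549 results at 24 h hold these arrays unless they are said to be left out.

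Of the 14 probes, 10 gave a signal well above background on 24 arrays. The others were CDH2 probe 2 on 14 arrays, ZEB2 probe 2 on 22, TWIST1 probe 1 on 13 and TWIST1 probe 2 on 0. The last probe could not be tested and is given no level. The remaining 13 probes were among the 23827 tested in 1 limma fit, where passing meant an adjusted p up to 0.05 together with a log2 difference of at least 1.

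**Figure D1:**
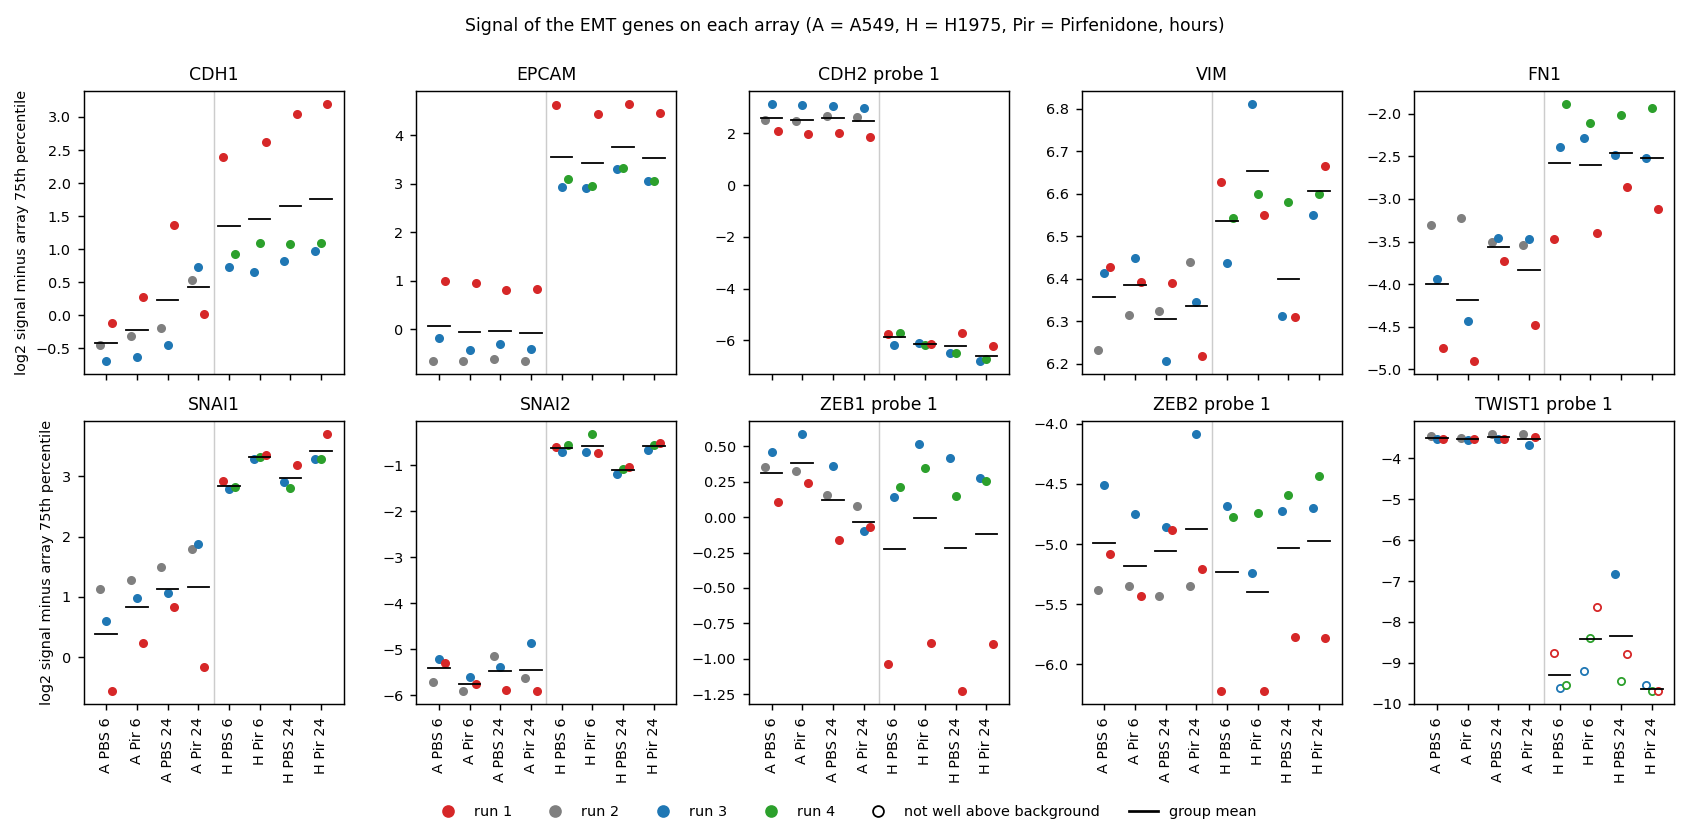
Log2 signal minus the array's 75th percentile (y axis) of the brightest probe of each of the 10 genes on every array, by line, treatment and time (x axis), with runs as colors, group means as lines and open points for signals not well above background. CDH2 and TWIST1 are low in H1975, EPCAM, SNAI1 and SNAI2 are high in it, and the red points of run 1 lie apart from the others in EPCAM in both lines.

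The first question was how the lines differ before treatment. With PBS, the lines differed in 8 of 13 probes at 6 h, of which H1975 was higher in 5 and lower in 3, and in 6 at 24 h, with 3 in each direction. Of the 23827 probes tested, 32.4% passed at the early time (4071 with more and 3638 with less signal in H1975) and 32.9% at the late one (4284 and 3560). As these are bulk samples, fewer cells that express a gene and less of its RNA per cell cannot be told apart. H1975 had more EPCAM, SNAI1 and SNAI2 mRNA at both times and nearly none of the CDH2 and TWIST1 signal of A549, while VIM, ZEB1 and ZEB2 did not pass. SNAI1 and SNAI2, which repress epithelial genes, were thus higher in the line that was also higher in EPCAM.

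Among the adhesion genes, EPCAM was at -0.65, -0.18 and 1.01 in A549 and at 4.63, 2.93 and 3.10 in H1975 at 6 h with PBS. All H1975 arrays were above all A549 arrays, by 3.49 on the log2 scale (SE 0.64, n = 3 against 3, limma adjusted p = 0.000107), which is 11.2-fold. At 24 h the levels were -0.62, -0.30 and 0.81 against 3.31, 3.32 and 4.65, a difference of 3.80 (SE 0.64, limma adjusted p = 4.25e-05). In each line the highest of the 3 values was that of run 1.

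CDH1 was well above background in both lines. At 6 h it was at -0.44, -0.70 and -0.12 in A549 and at 2.40, 0.73 and 0.93 in H1975, without overlap, a difference of 1.77 (SE 0.68, limma adjusted p = 0.0318). This call was lost without A549 replicate 1 (1.76, limma adjusted p = 0.0654), A549 replicate 2 (1.63, 0.087) or H1975 replicate 1 (1.25, 0.156), and with normexp background correction (1.71, 0.0526). At 24 h the levels of -0.20, -0.46 and 1.37 overlapped those of 0.83, 1.07 and 3.05, and the difference of 1.41 (SE 0.68) did not pass (limma adjusted p = 0.0825). The A549 value of 1.37 belonged to replicate 3, and without it CDH1 passed at 24 h (1.97, limma adjusted p = 0.0268), as it did without H1975 replicate 1 (1.82, limma adjusted p = 0.0482). With run as a block in the fit, CDH1 passed at both times, with 1.97 (SE 0.44, limma adjusted p = 0.00107) at 6 h and 1.61 (SE 0.44, limma adjusted p = 0.00479) at 24 h. That fit takes the effect of a run as the same in both lines. For CDH1 it was not, as run 1 differed from the other runs by 1.89 in H1975 and 0.57 in A549. These p-values with the block therefore rest on a shared effect that the levels do not show.

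CDH2 showed the reverse. Probe 1 was at 2.51, 3.14 and 2.11 in A549 and at -5.74, -6.19 and -5.72 in H1975 at 6 h, and at 2.67, 3.05 and 2.01 against -6.48, -6.49 and -5.73 at 24 h. The lines were far apart at both times, by -8.47 (SE 0.34, limma adjusted p = 8.01e-14) and -8.81 (SE 0.34, limma adjusted p = 4.46e-14), which is 354-fold and 449-fold less in H1975. With normexp background correction they were -7.40 and -7.51. Probe 2 was well above background on all 12 A549 arrays but on 2 of 12 H1975 arrays, both with PBS at 6 h. Its difference was -7.55 (SE 0.36, limma adjusted p = 1.24e-12) at 6 h, with 2 of 3 H1975 arrays measured, and at 24 h it was at least 224-fold lower in H1975 (limma adjusted p = 2.25e-13), where the bound sets each dim array at its lowest signal well above background or at the probe's own signal if that was higher.

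VIM had the smallest standard error of the 13 probes. It was at 6.23, 6.41 and 6.43 in A549 and at 6.63, 6.44 and 6.54 in H1975 at 6 h, and at 6.32, 6.21 and 6.39 against 6.31, 6.58 and 6.31 at 24 h. The H1975 arrays were all above those of A549 at 6 h and overlapped them at 24 h. The differences of 0.18 (95% interval -0.04 to 0.40) and 0.09 (95% interval -0.12 to 0.31) did not pass, and both intervals lay within a 2-fold difference.

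FN1 was at -3.30, -3.94 and -4.75 in A549 and at -3.47, -2.39 and -1.89 in H1975 at 6 h. The groups overlapped through the H1975 array of run 1, and the difference of 1.42 (SE 0.49) passed (limma adjusted p = 0.0186). FN1 did not pass at 6 h without A549 replicate 3 (1.04, limma adjusted p = 0.105), H1975 replicate 2 (1.32, 0.0558) or H1975 replicate 3 (1.07, 0.1001), nor with normexp (1.08, 0.0665). At 24 h, -3.51, -3.46 and -3.73 stood against -2.49, -2.02 and -2.86 without overlap, and the difference of 1.11 (SE 0.49) did not pass (limma adjusted p = 0.0596). With run as a block it passed at both times, with 1.39 (limma adjusted p = 0.00013) and 1.09 (limma adjusted p = 0.00117).

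The transcription factors fell into 3 patterns. SNAI1 was at 1.14, 0.60 and -0.57 in A549 and at 2.92, 2.79 and 2.82 in H1975 at 6 h, and at 1.50, 1.07 and 0.83 against 2.91, 2.81 and 3.20 at 24 h. All H1975 arrays were above all A549 arrays at both times, by 2.45 (SE 0.44, limma adjusted p = 8.61e-05) and 1.84 (SE 0.44, limma adjusted p = 0.00134). SNAI2 was at -5.72, -5.21 and -5.29 in A549 against -0.61, -0.71 and -0.56 in H1975 at 6 h, and at -5.14, -5.38 and -5.88 against -1.19, -1.07 and -1.03 at 24 h. Here the groups were far apart, by 4.78 (SE 0.22, limma adjusted p = 6.02e-13) and 4.37 (SE 0.22, limma adjusted p = 2.47e-12), or 27.5-fold and 20.7-fold. With normexp they were 3.79 and 3.29.

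TWIST1, a basic helix-loop-helix factor, was present in A549 by probe 1, with little spread, and near background in H1975. Probe 2 was well above background on 0 arrays, those of A549 included, so that the probes differ. Probe 1 was at -3.46, -3.53 and -3.53 in A549 at 6 h and at -3.41, -3.51 and -3.53 at 24 h. In H1975 it was not well above background on any PBS array at 6 h and on 1 of 3 at 24 h, replicate 1 with -6.83. It was at least 14.9-fold lower in H1975 at 6 h (limma adjusted p = 1.56e-09), and the difference of -4.86 at 24 h (SE 0.45, limma adjusted p = 1.94e-08) rests on 2 H1975 arrays near background. Without H1975 replicate 1 the latter was -5.63. With normexp the differences were -2.44 at 6 h, a smaller fold than the bound, and -2.25 at 24 h, in the same direction.

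ZEB1 and ZEB2 did not pass between the lines at either time. For ZEB1 probe 1 the differences were -0.53 (95% interval -1.43 to 0.36) and -0.34 (95% interval -1.24 to 0.55), and for ZEB2 probe 1 they were -0.24 (95% interval -1.25 to 0.77) and 0.03 (95% interval -0.98 to 1.04). These intervals allow differences near or above 2-fold. Within run 1, ZEB1 probe 1 was lower in H1975 than in A549 by -1.15 at 6 h and -1.07 at 24 h, and within run 3 the differences were -0.32 and 0.05.

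Of the genes that did pass, all (EPCAM, CDH1, CDH2, FN1, SNAI1, SNAI2 and TWIST1) had the same direction within run 1 and within run 3, the runs that held PBS arrays of both lines. EPCAM differed by 3.63 and 3.10 at 6 h and 3.84 and 3.61 at 24 h, SNAI1 by 3.49 and 2.18 and by 2.36 and 1.84, and SNAI2 by 4.69 and 4.50 and by 4.85 and 4.19. CDH1 differed by 2.52 and 1.43 and by 1.68 and 1.28, and FN1 by 1.28 and 1.56 and by 0.87 and 0.97. The summed levels of 4 marker lists on PBS arrays also separated the lines. They were -0.92 to 0.49 in A549 and 1.34 to 2.80 in H1975 for fibroblasts, 0.45 to 0.83 and 1.38 to 2.17 for leukocytes, -5.53 to -5.18 and -3.97 to -3.30 for endothelium and -3.23 to -2.69 and 0.03 to 1.32 for lung epithelium. A sum follows the brightest genes of its list. By the median level of the list on PBS arrays, fibroblast markers overlapped, with -8.81 to -7.45 in A549 and -9.42 to -6.80 in H1975. The medians of the other lists did not overlap. The part of these markers in the differences between the lines was not tested.

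**Figure D2:**
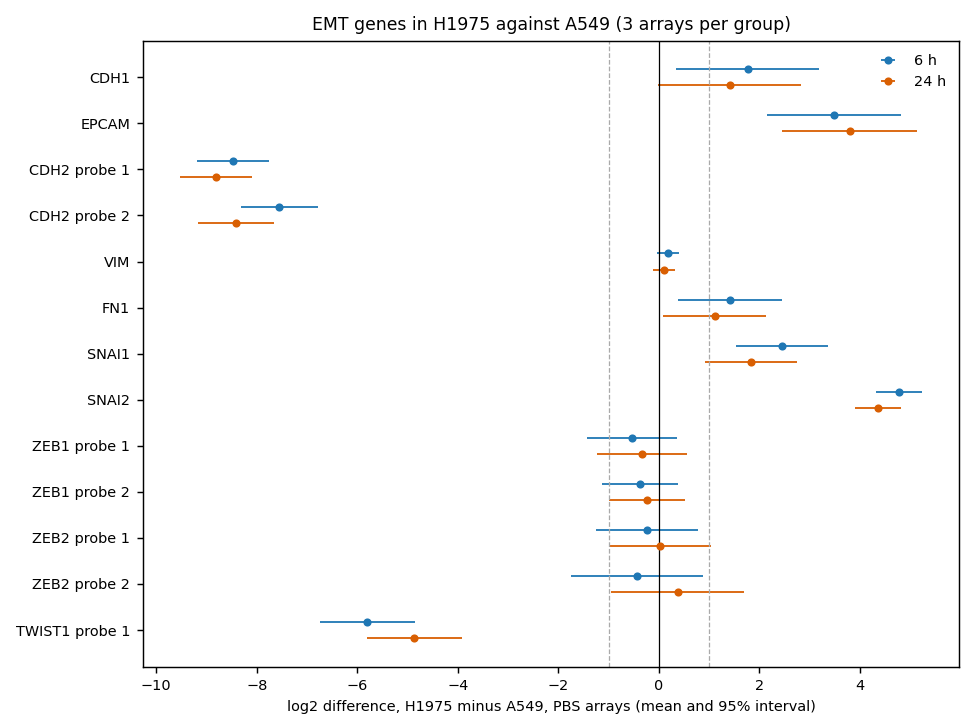
Difference between the lines with PBS (x axis, log2, H1975 minus A549) for the 13 tested probes (y axis) at 6 h and 24 h, with 95% intervals from the limma fit and dashed lines at a 2-fold difference. CDH2 and TWIST1 lie far to the left, EPCAM, SNAI1 and SNAI2 to the right, and VIM, ZEB1 and ZEB2 around 0.

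The second question was whether Pirfenidone moved these genes. None of the 13 probes passed in A549 or H1975 at 6 h or 24 h in the limma fit. Few probes on the array did: 0.176% at 6 h and 0.0126% at 24 h among A549 samples, and 0.491% and 1.89% among those of H1975. At an unadjusted p under 0.05, the counts were 0, 0, 1 and 2 of 13 probes, beside 6.01%, 0.953%, 11% and 22% of all probes. Among probes well above background on all 6 arrays compared, the 12 differences in A549 lay between -0.35 and 0.44 at 6 h and between -0.27 and 0.19 at 24 h. The 11 in H1975 lay between -0.25 and 0.54 and between -0.36 and 0.52. Without both A549 replicates 3, the A549 count at 24 h was again 0, but CDH1 moved from 0.19 to 0.96 (limma adjusted p = 0.845), SNAI1 from 0.04 to 0.55 (0.795) and ZEB2 probe 1 from 0.18 to 0.43 (0.944).

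How large a change could have been missed differed from gene to gene. For VIM the 95% interval was -0.19 to 0.25 in A549 at both times, -0.10 to 0.34 in H1975 at 6 h and -0.01 to 0.42 in H1975 at 24 h. For EPCAM, whose run 1 arrays stood apart, the interval of H1975 at 24 h ran from -1.57 to 1.102, and for CDH1 from -1.32 to 1.53. With run as a block, the EPCAM interval narrowed to -0.44 to -0.03 and that of CDH1 to -0.78 to 0.99. Under that block 10, 10, 9 and 8 of these probes had an interval within a 2-fold change, against 7, 7, 4 and 4 without it, and again none passed. For A549 at 24 h the narrower intervals are less firm. There the deviations from the group means of treated and PBS arrays of a run correlated with r of 0.46, 0.04 and -0.25. SNAI1 counted as within 2-fold (-0.70 to 0.77), though its differences within runs were -0.997, 0.30 and 0.81.

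Some differences that did not pass had the same sign in most pairs of treated and PBS arrays of a run. The most one-sided counts are given here and below as a description only. How many of all probes reach such counts was not determined. The 12 pairs span both lines and both times and are not replicates of 1 condition. SNAI1 in H1975 was at 2.92, 2.79 and 2.82 with PBS and 3.29, 3.32 and 3.36 with Pirfenidone at 6 h, and at 2.91, 2.81 and 3.20 against 3.29, 3.28 and 3.70 at 24 h. The groups did not overlap at either time, and the differences of 0.48 (95% interval -0.44 to 1.40) and 0.45 (95% interval -0.47 to 1.37) did not pass (limma adjusted p = 0.825 and 0.622). These intervals and p-values use a spread shared by all 8 groups. The SD of SNAI1 was 0.03 to 0.24 in the H1975 groups and 0.34 to 1.16 in those of A549, so that the A549 arrays widen them. Taken within runs, SNAI1 was higher with Pirfenidone in 11 of 12 pairs of arrays, with values between 0.14 and 0.81 in those of A549 and between 0.38 and 0.51 in H1975. The exception was run 1 in A549 at 24 h with -0.997, the pair in which the proliferation genes also ran the other way.

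SNAI2 in H1975 at 24 h was at -1.19, -1.07 and -1.03 with PBS and at -0.67, -0.56 and -0.51 with Pirfenidone. All treated arrays were above all PBS arrays, by 0.52 (95% interval 0.06 to 0.98, limma adjusted p = 0.171), and by 0.50 to 0.53 within the 3 runs. At 6 h the levels in H1975 were -0.61, -0.71 and -0.56 with PBS and -0.71, -0.32 and -0.73 with Pirfenidone, which overlapped. The PBS level was itself lower at 24 h than at 6 h on all arrays, by -0.47 (limma adjusted p = 0.453).

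EPCAM was lower with Pirfenidone in 11 of 12 pairs within runs, by at most -0.27. CDH2 probe 1 was also lower in 11 of 12, with values between -0.50 and 0.10, and its 3 pairs in H1975 at 24 h gave -0.50, -0.33 and -0.24. Its treated levels there, -6.81 to -6.23, were close to the lowest signals well above background on these arrays (-7.49 to -7.29). CDH2 probe 2, not well above background there, gave -0.23, 0.64 and -0.03 in the same pairs. CDH1 was higher in 10 of 12, with 0.73 and 1.19 in A549 at 24 h in runs 2 and 3 and -1.34 in run 1. With run as a block the EPCAM change in H1975 at 24 h was -0.23 (limma adjusted p = 0.12), which did not pass. In A549, SNAI2 at 6 h was lower in all 3 pairs, by -0.46, -0.20 and -0.39, and the groups overlapped.

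Treated and PBS arrays did not overlap in few of the 13 probes. In A549 there were none at 6 h or 24 h, where 15.3% and 1.82% of all probes did not overlap. In H1975 SNAI1 was above and CDH2 probe 2 below PBS at 6 h (17.8% of all probes), and SNAI1 and SNAI2 were above and TWIST1 probe 1 below at 24 h (31.9%). CDH2 probe 2 was well above background on 2 PBS and 0 treated arrays, and TWIST1 probe 1 on 1 PBS and 0 treated arrays, so that their changes of -0.86 and -1.29 rest on signals near background. Without replicate 2 of H1975 PBS at 24 h, TWIST1 passed with -1.84 (limma adjusted p = 0.0289).

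**Figure D3:**
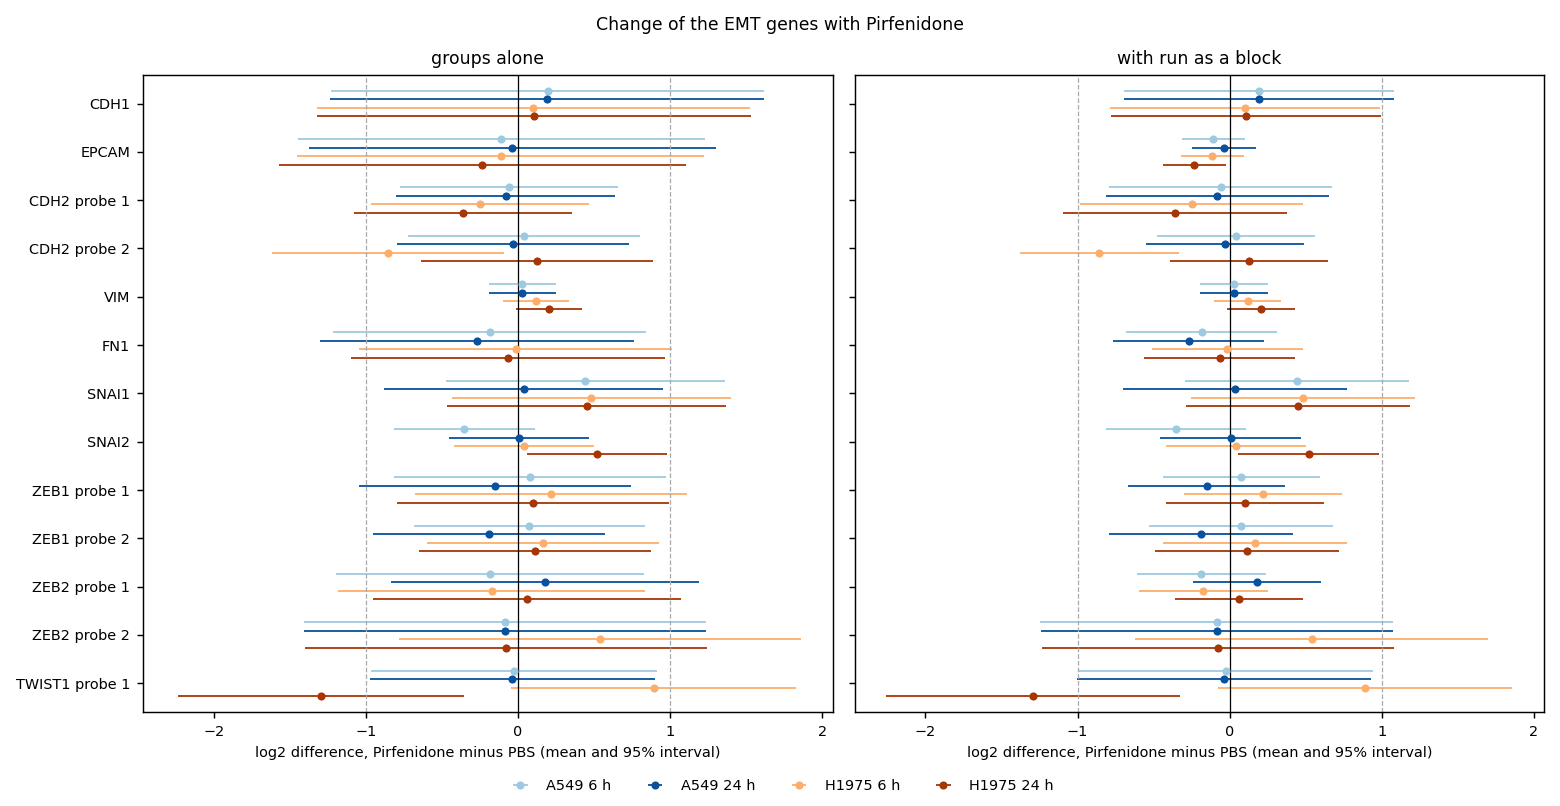
Change with Pirfenidone (x axis, log2, Pirfenidone minus PBS) of the 13 tested probes (y axis) in the 4 comparisons, with 95% intervals from the limma fit of groups alone (left) and with run as a block (right). The points stay within 1 of 0 except TWIST1 in H1975 at 24 h, and the intervals of EPCAM shrink most when run is in the fit.

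A difference between the lines in the Pirfenidone change did not pass for any of the 13 probes at 6 h or 24 h in the limma test, where 0.0336% and 0.193% of all probes passed. At an unadjusted p under 0.05 it was 0 and 0 of the 13, beside 2.63% and 12.2% of all probes. For SNAI2 the change in H1975 minus that in A549 was 0.39 (95% interval -0.26 to 1.04) at 6 h and 0.51 (95% interval -0.14 to 1.16) at 24 h. Of the 10 probes well above background on all arrays compared, 1 had an interval within a 2-fold difference at 6 h and 1 at 24 h. Limits of the 10 reached from -2.11 to 1.92 at 6 h and from -2.10 to 1.93 at 24 h, so that larger differences are not excluded for most. With PBS, none of the 13 passed between 24 h and 6 h in A549 or H1975 by limma (0.109% and 0.315% of all probes passed), and 0 and 3 had an unadjusted p under 0.05, beside 8.49% and 10.6% of all probes. The 3 were SNAI2, CDH2 probe 2 and TWIST1 probe 1 in H1975.

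Within a line, the arrays of run 1 stood apart in several of these genes. This was noticed in the levels and is described without a test, since in each line these arrays share 1 slide, and run, slide and culture cannot be told apart. In H1975, 7 of 13 probes had all 4 arrays of run 1 apart from the 8 of the other runs, 2 higher and 5 lower, where 16.4% of all probes with a value on every array did so. In A549 it was 3 of 13, 1 higher and 2 lower, where 5.7% of all probes did so. In both lines and in the same direction it was 1 of 13, EPCAM, where 1.18% of all probes did so.

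The adhesion genes were higher in run 1. EPCAM was at 4.44 to 4.65 in run 1 and 2.92 to 3.32 in the other runs of H1975, and at 0.81 to 1.01 against -0.66 to -0.18 in A549, mean differences of 1.47 and 1.39. CDH1 was at 2.40 to 3.20 against 0.65 to 1.098 in H1975, a mean difference of 1.89, and overlapped in A549. For comparison, the Pirfenidone differences lay between -0.36 and 0.54 for member probes well above background on all 6 arrays compared.

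Several mesenchymal genes and factors were lower in run 1. In H1975, ZEB1 probe 1 was at -1.23 to -0.89 against 0.14 to 0.52 and probe 2 differed by -1.01. ZEB2 differed by -1.26 and -1.46 by its probes and FN1 by -1.01. In A549, CDH2 was lower by -0.84 and -0.77 by its probes, while ZEB1 and ZEB2 overlapped between the runs. VIM differed by 0.02 in A549 and -0.02 in H1975.

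Further genes of the same kind were taken from lists of 30 epithelial genes (junction proteins and their regulators) and 26 mesenchymal genes. Of 30 epithelial genes, 20 were apart and higher in run 1 of H1975 and 0 lower, with a median difference of 1.48 over the list, beside -0.01 over all probes. In A549 it was 6 higher and 0 lower, with a median of 0.42. Of all 23748 probes with a value on every array, 1998 were apart and higher in H1975 and 763 in A549. The splicing regulator ESRP1 (2.08 in H1975 and 1.34 in A549), the repressor OVOL2 (2.16 and 1.79), CDS1 (1.67 and 1.09) and the polarity gene CRB3 (1.79 and 0.59) were apart in both lines.

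Of 23 mesenchymal genes with a value on every array, 8 were apart and lower in run 1 of H1975 and 5 in A549, and none was apart and higher. Of all 23748 such probes, 1894 were apart and lower in H1975 and 591 in A549. CDH11, a cadherin of mesenchymal cells (-1.95 in H1975 and -1.61 in A549), the actin-binding gene TAGLN (-1.32 and -1.51), MYL9 (-0.89 and -3.09) and FSTL1 (-0.62 and -1.16) were apart in both lines. The summed level of the 7 fibroblast markers was also lower in run 1, 1.34 to 2.14 against 2.48 to 3.05 in H1975 and -0.92 to -0.64 against -0.41 to 0.49 in A549. That of the 5 leukocyte markers was 1.38 to 1.54 against 1.79 to 2.27 in H1975 and overlapped in A549. Such sums follow the brightest genes of a list. The median level of the fibroblast list overlapped between run 1 and the other runs. It was -8.84 to -6.75 against -9.42 to -5.21 in H1975 and -8.81 to -7.12 against -8.70 to -7.45 in A549. The leukocyte median also overlapped in H1975, -3.47 to -2.30 against -2.94 to -1.95. The part of these markers in the difference was not tested. None of the 10 proliferation genes was apart in run 1 in either line.

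**Figure D4:**
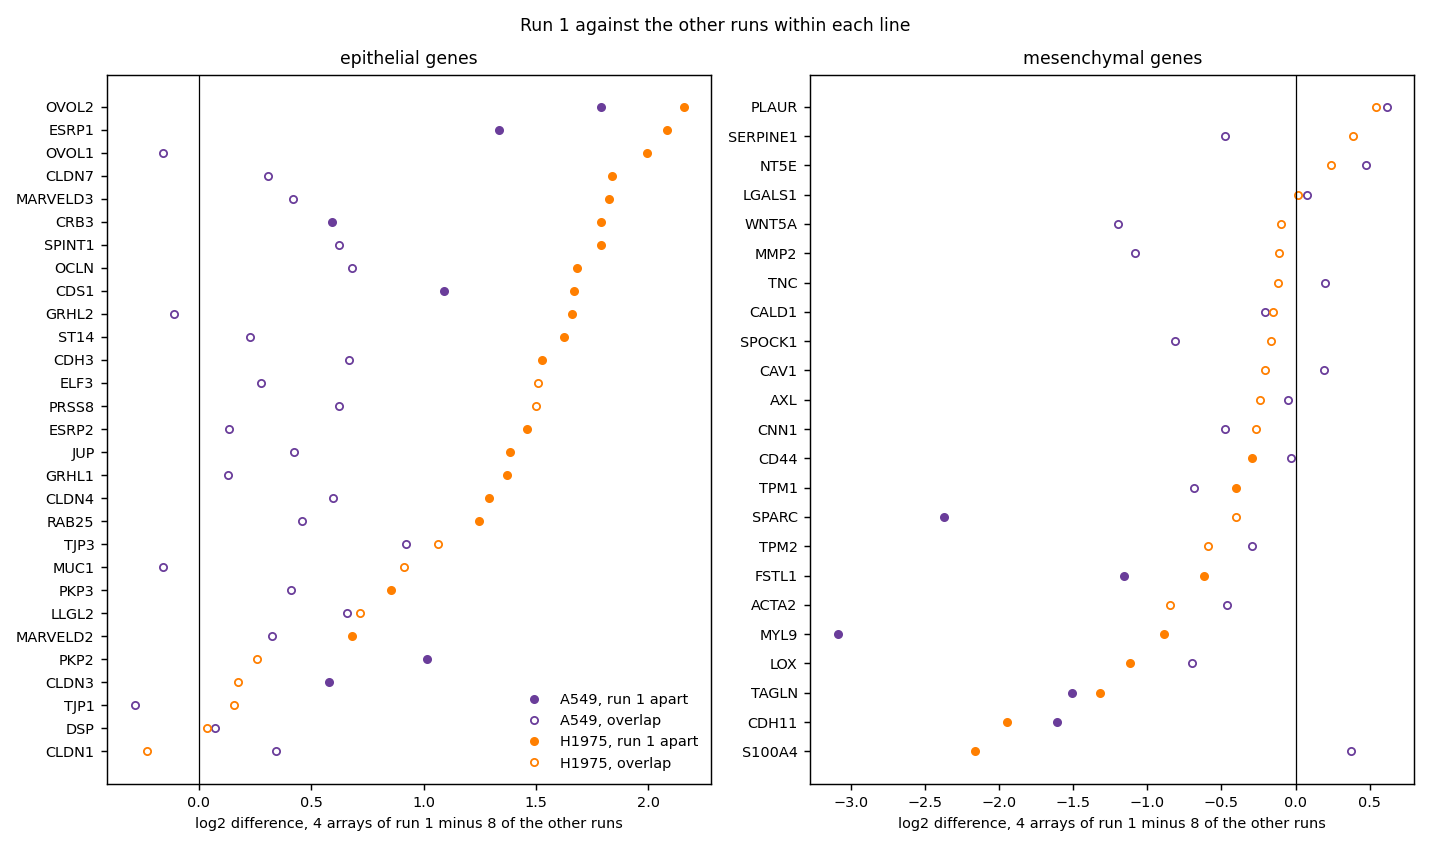
Mean difference between the 4 arrays of run 1 and the 8 of the other runs (x axis, log2) for epithelial genes (left, 1 gene of the list not shown) and mesenchymal genes (right) in A549 and H1975, with filled points where the 4 arrays did not overlap the 8. In H1975, most epithelial genes are filled and to the right of 0, and 8 of 23 mesenchymal genes are filled and to the left.

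Between the lines with PBS, the epithelial list was mostly higher in H1975, with 17 genes higher and 6 lower at 6 h and 19 and 4 at 24 h, of 30. Its median difference was 1.58 and 2.62, beside 0.06 and 0.08 over all probes. Among all probes tested, 32.4% passed at 6 h and 32.9% at 24 h in either direction. The repressor OVOL1 was at least 39.7-fold higher at 6 h, and P-cadherin (CDH3) and the splicing regulator ESRP2 differed by 8.54 and 6.80. CLDN1, a tight junction claudin, and the factor ELF3 went the other way, with -5.25 and -3.53. The tight junction gene TJP3 was at least 3.62-fold lower and the desmosome gene PKP2 differed by -1.84 at 6 h, and LLGL2 by -1.43 at 24 h.

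The mesenchymal list was also mostly higher in H1975, with 12 higher and 4 lower at 6 h and 13 and 5 at 24 h, of 24 tested, and a median of 1.095 and 1.24. The share of all probes that passed was 32.4% and 32.9%. The matrix genes LOX and TNC were at least 391-fold and 349-fold higher at 6 h, and the contractile genes MYL9 and CNN1 differed by 6.00 and 3.07. The tropomyosin TPM2 (-4.99), S100A4 (-4.92) and TPM1 (-1.39) were lower, and the protease MMP2 was at least 2.84-fold lower. At 24 h ACTA2 was lower by -1.93, and NT5E, counted as higher, had a second probe at -0.07. Thus genes of both lists were higher in the same line, with exceptions in each.

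Other transcription factors with a known role in EMT were lower in H1975 more often than higher, 5 against 2 at 6 h and 5 against 1 at 24 h, of 11 tested. Beside this, 32.4% and 32.9% of all probes passed. TWIST2, the closest relative of TWIST1, was at least 136-fold lower at 6 h and GSC at least 13.2-fold, while TCF4 and FOXQ1 differed by -5.60 and -4.19. By its brightest probe KLF8 was at least 17.0-fold higher, but its other probe differed by 0.29 at 6 h and 0.44 at 24 h, and SOX9 was higher by 1.13. Among the 5 lower at 24 h was HMGA2 (-1.03), whose other probes differed by 0.67 and 1.80, so that these counts depend on the probe chosen. In the TGFβ pathway list of 18 genes, 7 were lower and 1 higher at 6 h and 9 and 1 at 24 h. With 32.4% and 32.9% of all probes passing, whether this list differs from all probes was not tested. The ligand TGFB1 (-1.49), the inhibitor SMAD6 (-2.95) and the targets ID2 (-2.93) and ID3 (-1.81) were lower at 6 h, and the ligand TGFB3 (2.87) was higher.

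**Figure D5:**
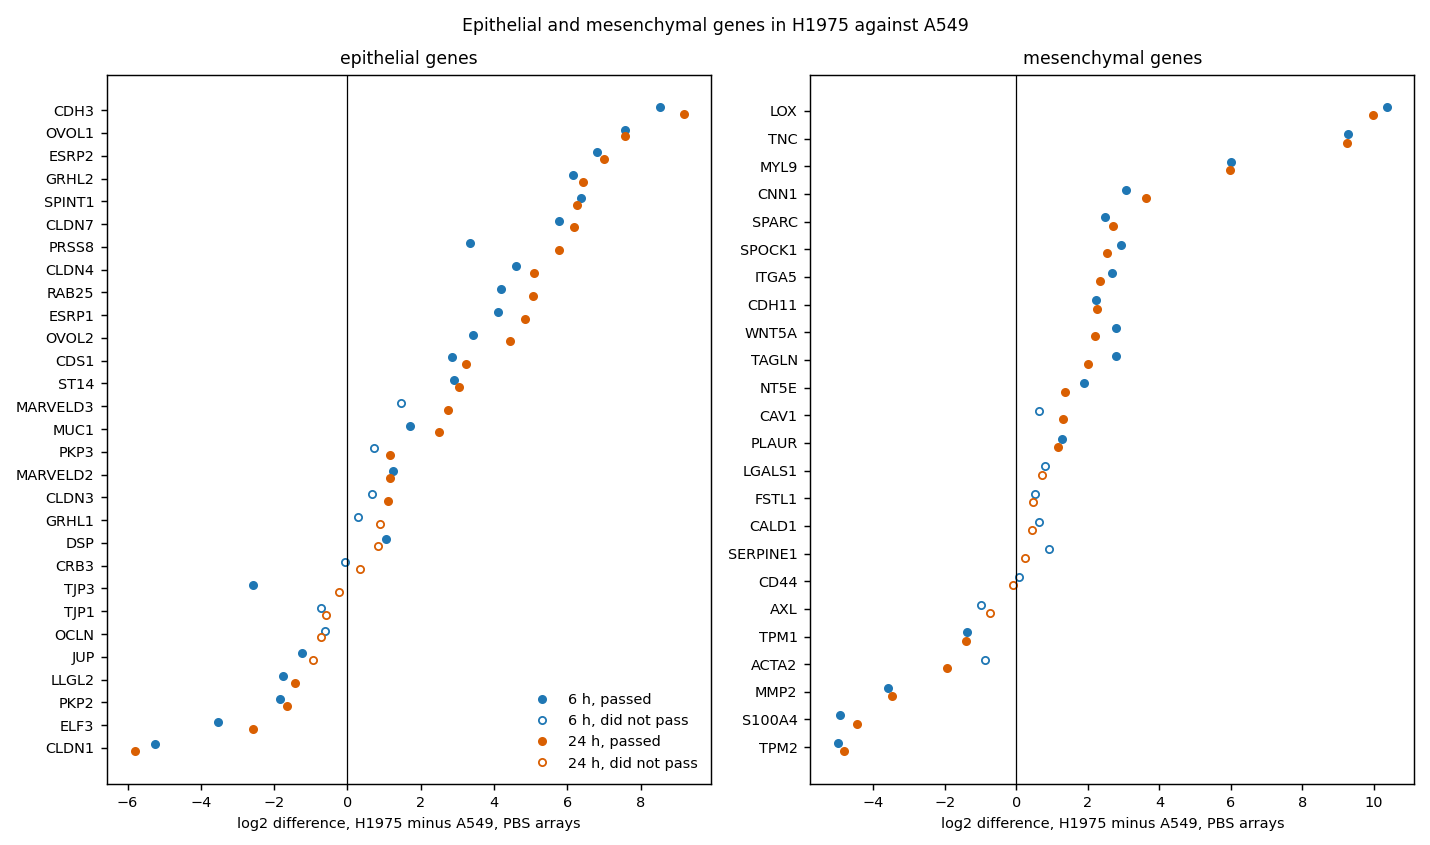
Difference between the lines with PBS (x axis, log2, H1975 minus A549) for tested epithelial genes (left, 1 gene of the list not shown) and mesenchymal genes (right) at 6 h and 24 h, with filled points for genes that passed in the limma fit. Both lists reach from about -5 to above 9, and most filled points of both lie to the right of 0.

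With Pirfenidone, 0 of 30 epithelial genes, 0 of 24 mesenchymal genes and 0 of 11 other transcription factors passed in any of the 4 limma comparisons. Of all probes, 0.176% and 0.0126% passed in A549 at 6 h and 24 h, and 0.491% and 1.89% in H1975. A count of 0 in lists of this size is near that share. The medians of these 3 lists lay between -0.16 and 0.13. Of the 18 TGFβ pathway genes, ID2, a TGFβ and BMP target, rose in H1975 at 6 h (1.04, SE 0.17, limma adjusted p = 0.00396), and LTBP1, which binds latent TGFβ, rose in H1975 at 24 h (1.06, SE 0.30, limma adjusted p = 0.0428). On the same arrays 9 of 10 proliferation genes fell in H1975 at 24 h, with a median of -1.24, among them AURKA (-1.38, limma adjusted p = 0.0122), MKI67 (-1.36), PLK1 (-1.36) and BUB1 (-1.33). Of these 10, CDC20 was higher in H1975 than in A549 with PBS at 24 h (1.04), where 32.9% of all probes passed. Between the times with PBS, TJP3 of the epithelial list was higher at 24 h in H1975, at least 4.19-fold (limma adjusted p = 0.0213). No other gene of the epithelial, mesenchymal, transcription factor, TGFβ and proliferation lists passed in A549 or H1975, where 0.109% and 0.315% of all probes did.

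The genes whose levels ran most like those of the members were sought by Pearson's r over the 24 arrays, after each line was centered on its mean, among 17654 probes. This is a description without a test, and the arrays share runs. TWIST1, not well above background on every array, was left out. EPCAM was most like OVOL2 (0.96), CGN (0.93), a tight junction protein, and FGFR2 (0.92). CDH1 ran with ACOT11 (0.95), RANBP17 (0.95) and TTC39A (0.93). SNAI1 ran with BCL2L11 (0.97), which codes for the pro-apoptotic BIM, NAMPT (0.90) and TSKU (0.87). For ZEB1 it was FKBP1A (0.95), for ZEB2 SUSD4 (0.94), for FN1 SRRM2 (0.91), for CDH2 TGFBI (0.85), for VIM PPP1R14A (0.80) and for SNAI2 RND3 (0.75), the weakest of these.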

How the data were processed

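Total RNA of 24 samples was labeled with Cy3 and hybridized to 24 one-color Agilent arrays, 3 for each of 8 groups, which follow the labels. Spot intensity is given in scanner output that the authors deposited, made with Agilent Feature Extraction version 11.5.1.1. This software subtracts background and marks outlier spots and spots well above background, and it gives probe positions in hg19. A second deposited table gives the authors' own log2 values, in which each probe is centered on its median over the arrays (column medians -0.162 to 0.155), with their scaling not given in the sources used here. After centering, its values correlated with those used here with r = 0.999.

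Main values were log2 of the processed signal minus the array's 75th percentile over 43118 spots that are not controls (percentile signal 2480 to 4216). Outlier spots were dropped and spots of a probe averaged. Well above background means that 0.5 or more of a probe's spots were so marked. The number of arrays limits the precision. Of 34127 probes, 23827 met this on every one of the 3 arrays in some group and were tested in R version 4.3.3 (limma version 3.58.1), with all 8 groups in 1 model (16 residual degrees of freedom), with Benjamini-Hochberg adjustment over all of them. The 10 comparisons are named by their direction. Steps were tested on simulated data.

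All probes of the 10 genes are named, and from each further list the 4 largest increases and decreases among genes whose brightest probe passed, and for likeness the 3 most similar genes. The values of 1 gene of the epithelial list, which stays in the counts and medians, are not reported here. Genes named in the description of run 1 were chosen after their values were seen. The members, lists and tests were chosen with earlier results of these data known. Alternatives covered scaling, background correction, filters, multiple testing, batches, replicate number as a block, single arrays left out, and, chosen after seeing the data, run as a block without a limit on size. The Westfall-Young adjustment of the study's methods was not run, since the smallest two-sided permutation p of 3 arrays against 3 is 0.1.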

Additional observations from a re-analysis of the deposited data

How the results depend on the processing

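The count of member probes that passed stayed at 0 in the 4 Pirfenidone comparisons, both differences between the lines in the Pirfenidone change and both differences between times, under every alternative run, except that leaving out 1 array gave between 0 and 1 in H1975 at 24 h (TWIST1, without replicate 2 of PBS). For the lines with PBS, 8 probes at 6 h became 4 with the Holm adjustment, and leaving out 1 array gave 7 to 7 at 6 h and 6 to 7 at 24 h against 6. Calls that changed were mainly those of CDH1 and FN1, and the cause was not tested. SNAI1 and EPCAM lost their calls with the Holm adjustment alone. With no limit on size and run as a block, chosen after seeing the data, 10 probes passed at 6 h and 8 at 24 h. ZEB1 (-0.71, limma adjusted p = 0.0243) and ZEB2 (-0.67, limma adjusted p = 0.0108) were then among those at 6 h. The share of all probes that passed so is not given here. Without the block, 62.6% and 62.8% of all probes had an unadjusted limma p under 0.05, beside 8 and 7 of the 13. The block takes the run effect as shared by the lines, but that of run 1 was -1.30 in H1975 and -0.25 in A549 for ZEB1 probe 1. For ZEB2 probe 1 it was -1.26 and -0.19. No direction of a call was reversed. Normexp background correction made the differences of CDH2, SNAI2 and TWIST1 between the lines smaller (-7.40, 3.79 and -2.44 at 6 h). PBS and Pirfenidone arrays of the same replicate number correlated in their deviations from the group means in A549 at 6 h (r of 0.84, 0.79 and 0.78) and H1975 at 24 h (0.60, 0.70 and 0.76), but not all did in A549 at 24 h (0.46, 0.04 and -0.25) or in H1975 at 6 h (-0.52, 0.52 and -0.77, and 0.88, 0.61 and 0.82 when matched by run). In A549 the number is also the run and the slide. A fit with the replicate block gave 0 member probes in each of the 4 Pirfenidone comparisons and changed no count by over 1.5 times. CDH2 probe 2 and TWIST1 in H1975 lie at background, which limits what can be said of their changes there.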
